A study of Mus musculus with 574 samples.

Results

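Transmitter receptor genes were followed through the first days of neuron formation in the mouse ventral midbrain: those for glutamate, GABA, glycine, acetylcholine and serotonin. A gene was taken when its symbol matched the naming pattern of these families and its level reached an RPKM of 1 (a level scaled to transcript length and to the reads of the library) in at least 6 of the 24 pools of cells. Of 23706 genes in the pool table, 81 matched the pattern and 51 of them reached that level. Of these, 47 encode receptor subunits or receptors: 4 of the AMPA, 5 of the NMDA, 5 of the kainate and 6 of the metabotropic glutamate receptors, 14 of the GABA-A and 2 of the glycine receptors, 6 of the nicotinic and 2 of the muscarinic acetylcholine receptors, and 3 of the serotonin receptors. The other 4 share only the spelling: Grina encodes an NMDA receptor-associated membrane protein, and Htra1, Htra2 and Htra3 encode serine proteases.

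The cells came from embryos of C57BL/6 background that were heterozygous for Lmx1a-EGFP, a reporter that puts green fluorescent protein (GFP) in cells using the homeobox gene Lmx1a. Every library, single or pooled, carried this allele and was made with Smart-seq2 from developing ventral midbrain cells. The 24 pools held 100 cells each, and each of 4 groups had 6 pools: GFP positive and GFP negative cells of E10.5 and of E13.5 (embryonic days, here E). The 550 single cells came from 4 stages between E10.5 and E13.5, the fewest (90) from E11.5, and carry no GFP class in the labels. No embryo or litter is named. The p-values therefore describe only how far pools differ from one another, possibly for technical reasons, and the cells of a stage are treated as a single sample.

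Ionotropic receptors for glutamate, GABA, glycine and acetylcholine are ion channels built from several subunits, so that a cell needs the right partners together; metabotropic glutamate, muscarinic and most serotonin receptors are single proteins that signal through G proteins. Adult midbrain dopamine neurons are known for nicotinic receptors with the alpha6 and beta2 subunits and for the M5 muscarinic receptor, and the neurons of the subthalamic nucleus, a diencephalic structure whose precursors carry Barhl1, for glutamate and GABA-A receptors. In embryonic neurons GABA can depolarise, because the chloride importer NKCC1 outweighs the exporter KCC2.

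Some measures of the pools themselves stand beside every comparison. EGFP averaged 206 ± 20.96 RPKM in E10.5 GFP positive pools and 60.6 ± 10.46 in E13.5 GFP positive pools (SD, n = 6 each). The E10.5 GFP negative pools averaged 2.295 RPKM, and all E13.5 GFP negative pools stood at 0. The summed level of 8 pan-neuronal genes was 228 to 383 RPKM (median 303) in E10.5 GFP positive pools, 1095 to 2108 (median 1773) in E10.5 GFP negative pools, 3559 to 4009 (median 3813) in E13.5 GFP positive and 3979 to 4449 (median 4304) in E13.5 GFP negative pools. Red blood cell genes reached a summed RPKM of 1000 or more in 5 of 6 E10.5 GFP negative and 2 of 6 E13.5 GFP negative pools, and in no GFP positive pool. All 5 microglia and macrophage genes and all 4 mesenchyme genes were also lower in GFP positive pools at E10.5. In pools, fewer cells of a type and less RNA per cell cannot be told apart. The deposited values implied 1.30 to 3.67 M reads per pool (median 2.76 M; by group 1.81 M in E10.5 GFP positive, 2.51 M in E10.5 GFP negative, 2.96 M in E13.5 GFP positive and 3.04 M in E13.5 GFP negative pools, with the part of depth not tested), so that 1 RPKM on a 2 kb transcript came to 5.52 reads in the median pool.

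Summed by family, mean receptor levels were higher at E13.5 than at E10.5 in both classes, though not for every gene. The size of the gap varied: in GFP negative pools the metabotropic glutamate sum went from 26.7 to 37.5 RPKM. The serotonin sum averaged at most 6.53 RPKM in any group. Chrna4, Chrnb2, Glrb and Grik5 were among the receptors that reached an RPKM of 1 in all 24 pools. Another 16 receptors passed the RPKM minimum only with the help of the group where they were highest (among them Chrna6, Chrm5, Gabrr3, Gria1 and Gabrb1), so a difference between groups was built into their selection; the other 31 passed without that group. Chrm3, Chrm5, Chrna5, Gabrg3, Gabrq and Gabrr3 were present in exactly 6 pools. Just outside, Chrm4 reached an RPKM of 1 in 5 pools, and Chrnb1, Chrnb3, Gabrr2 and Htr2a in 4.

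**Figure D1:**
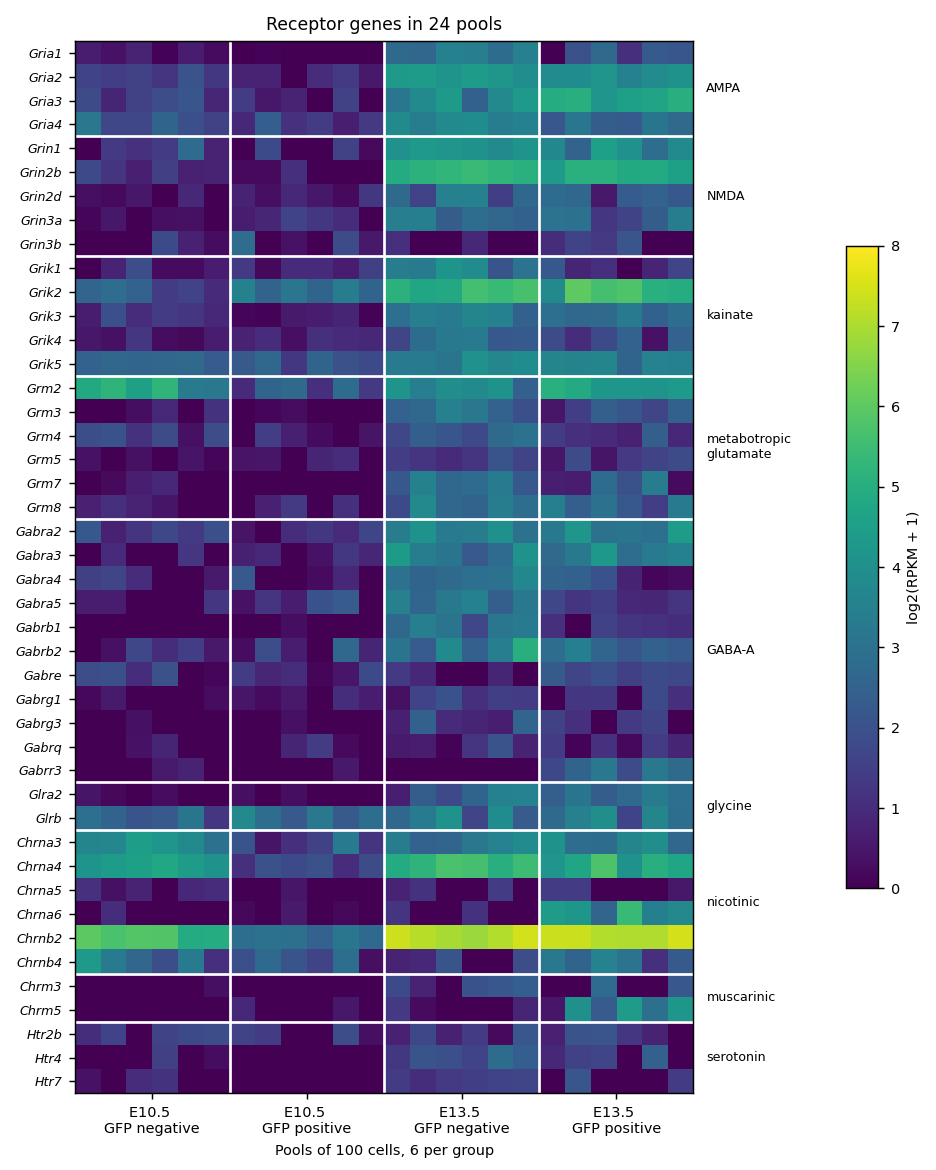
Each column is 1 pool of 100 cells and each of the 44 rows 1 receptor gene, grouped by family; colour gives log2(RPKM + 1). The E10.5 GFP positive pools are dark in nearly every family, Chrnb2 is the brightest gene in both E13.5 groups, and Chrna6, Chrm5 and Gabrr3 are bright mainly in E13.5 GFP positive pools.

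Differences were tested with limma on log2(RPKM + 1) over the 15871 genes that reached an RPKM of 1 in 6 pools, and a gene was called when its Benjamini-Hochberg adjusted p was under 0.05. All log2 differences in pools are on this scale, which understates the change of low genes. At E10.5, GFP positive against GFP negative, none of the 47 receptors was higher (4.51% of all genes tested were) and 10 were lower (21.3%, against 8.64% of all genes tested). At an unadjusted limma p under 0.05, 1 receptor, Grik2, was higher and 12 were lower. The shares of all genes at that looser limit are not given here, and those above do not apply to it. The median log2 difference was -0.30 over the receptors and -0.01 over all genes tested. All 10 were among the 31 receptors that passed without their highest group. All 8 pan-neuronal genes were lower in GFP positive pools too, with a median log2 difference of -2.32, as were 5 of 6 GABAergic genes (summed median 3.89 against 35.5 RPKM), all 3 motor and cholinergic genes tested (0.750 against 56.004 RPKM) and 2 of 3 red nucleus genes. Their part in the receptor differences was not tested. Without the pools rich in red blood cell genes, a choice made after seeing the data that leaves 1 E10.5 GFP negative pool, whose spread is taken from the other groups, 3 of the 10 kept an adjusted p under 0.05 in limma: Chrna4, Chrnb2 and Grm2.

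The nicotinic subunits Chrna4 and Chrnb2 had the largest E10.5 differences. Chrnb2, whose beta2 subunit is the partner of most brain nicotinic alpha subunits, lies on chromosome 3 from 89746195 to 89764632 (minus strand, GRCm38). Its level was 4.70 to 7.76 RPKM (median 6.54) in E10.5 GFP positive pools, 29.2 to 62.4 (median 53.4) in E10.5 GFP negative pools, 130 to 179 (median 148.4) in E13.5 GFP positive and 110.7 to 174.6 (median 136.99) in E13.5 GFP negative pools. The E10.5 classes did not overlap and the E13.5 classes did. The log2 difference between classes was -2.67 ± 0.17 (SE) at E10.5 (limma adjusted p = 2.73e-11) and 0.09 ± 0.17 at E13.5 (adjusted p = 0.845, 95% interval -0.25 to 0.43). Chrna4, which encodes the alpha4 subunit of the high-affinity brain receptor, was 1.01 to 2.98 RPKM (median 2.53) in E10.5 GFP positive pools and 16.01 to 26.1 (median 20.2) in E10.5 GFP negative pools. At E13.5 it was 15.9 to 53.4 RPKM (median 25.5) in GFP positive and 29.2 to 50.8 (median 39.6) in GFP negative pools. Again only the E10.5 classes stood apart, by a log2 difference of -2.77 ± 0.25 (limma adjusted p = 5.81e-09); at E13.5 the difference was -0.58 ± 0.25 (adjusted p = 0.172), or -0.79 (adjusted p = 0.0361) without E13.5 GFP positive replicate 3.

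Chrna3, the alpha3 subunit of ganglionic and habenular receptors, was 0.378 to 8.96 RPKM (median 1.65) in E10.5 GFP positive pools and 7.02 to 20.7 (median 12.7) in GFP negative pools. These ranges overlapped, with a log2 difference of -2.18 ± 0.38 (limma adjusted p = 0.000146; -2.57 with adjusted p = 0.0863 without the pools rich in red blood cell genes). At E13.5 its medians were 8.86 RPKM in the GFP positive and 8.84 in the GFP negative class. Chrna3 shares a gene cluster on chromosome 9 with Chrna5 and Chrnb4 with gaps of 2.33 and 1.59 kb between them. Chrna5, an accessory subunit, was at most 1.66 RPKM in any pool. Chrnb4, the usual beta partner of alpha3, had a median of 6.10 RPKM (1.11 to 10.6) in E13.5 GFP positive and 0.780 (0 to 3.21) in E13.5 GFP negative pools, which overlapped. Its log2 difference of 1.68 ± 0.52 was close to the threshold (limma adjusted p = 0.0478), and it lost the call in 16 of 24 fits that each left out 1 pool. Chrnb4 was the only receptor that fell from E10.5 to E13.5, in GFP negative pools, by 1.82 ± 0.52 on the log2 scale (limma adjusted p = 0.00528); with the pools rich in red blood cell genes left out it was -1.04 (adjusted p = 0.475).

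Chrna6 was close to absent except in E13.5 GFP positive pools. It encodes the alpha6 subunit, a marker of dopamine neurons among nicotinic genes, and lies on chromosome 8 from 27403212 to 27413944 (minus strand, GRCm38). Its level was 5.05 to 42.01 RPKM (median 15.2) in these pools, against at most 0.489 in E10.5 GFP positive, 1.05 in E10.5 GFP negative and 1.36 in E13.5 GFP negative pools. No E13.5 GFP positive pool overlapped with any other group, and the log2 difference between the E13.5 classes was 3.58 ± 0.36 (limma adjusted p = 1.05e-07). Chrna6 passed the RPKM minimum only with this E13.5 GFP positive group, so a difference between groups was built into its selection. Chrnb3, which encodes another subunit found beside alpha6, lies 3.48 kb from Chrna6. It missed the RPKM minimum with 4 pools and was therefore not tested: it was 0 to 23.4 RPKM (median 4.42) in E13.5 GFP positive pools and at most 0.0723 in E13.5 GFP negative pools. Summed over the 6 nicotinic genes, the level averaged 15.04 ± 5.04 RPKM and 90.02 ± 21.9 in E10.5 GFP positive and negative pools, and 212.5 ± 14.51 and 192.4 ± 23.997 at E13.5 (SD, n = 6 each). Chrnb2 made up 70.5% of the E13.5 GFP positive sum and 73.5% of the GFP negative sum.

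Among muscarinic receptors, Chrm5, the Gq-coupled M5 receptor, was 0.399 to 20.52 RPKM (median 10.9) in E13.5 GFP positive pools and 0 to 1.56 (median 0.0944) in E13.5 GFP negative pools. One GFP positive pool lay within the GFP negative range and the other 5 lay above it. The log2 difference was 2.66 ± 0.46 (limma adjusted p = 0.000295). Chrm5 too passed the RPKM minimum only with the E13.5 GFP positive group, so a difference was built into its selection. At E10.5 Chrm5 was at most 0.879 RPKM in the GFP positive class and stood at 0 in all 6 GFP negative pools. Chrm3, the M3 receptor, averaged 1.57 and 2.33 RPKM in the E13.5 classes and was not called between them.

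**Figure D2:**
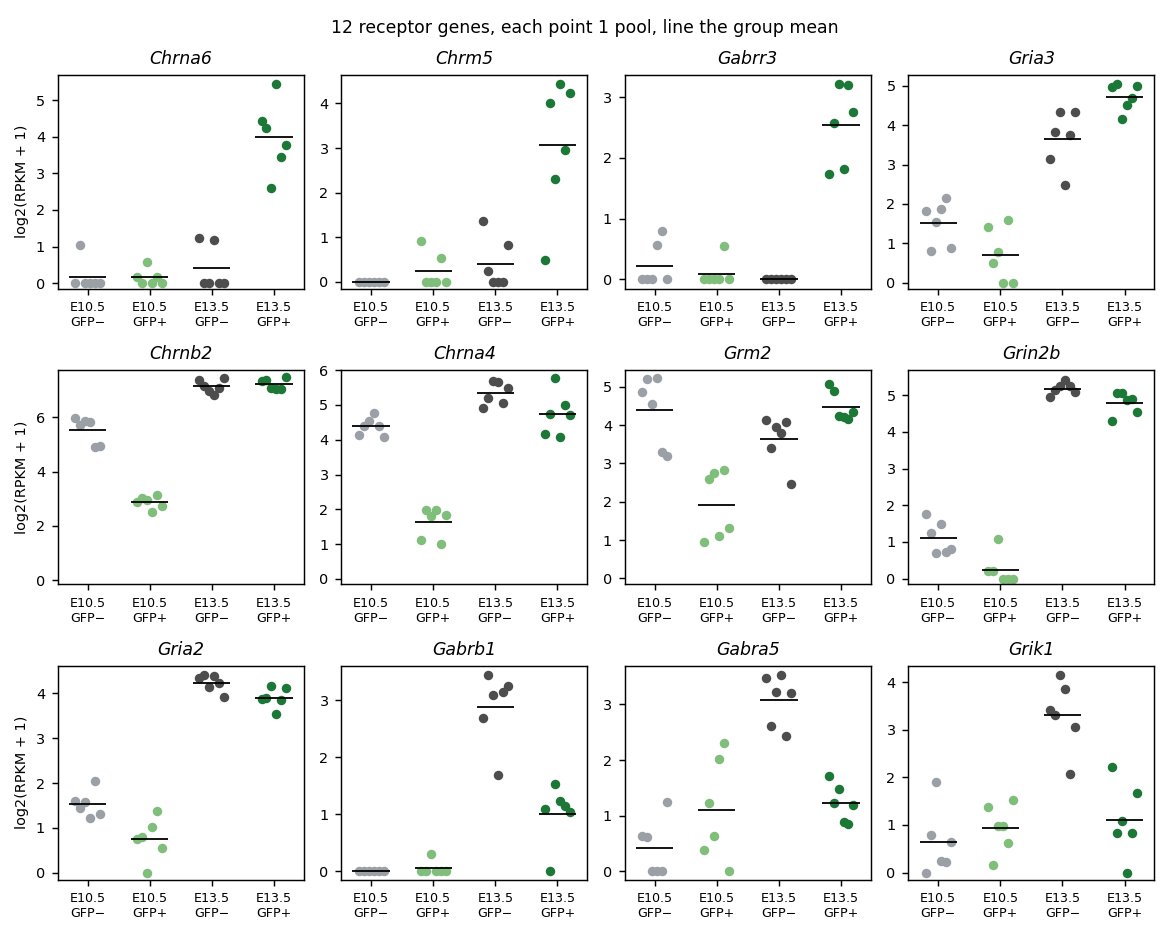
Points are pools (6 per group), lines are group means and the vertical axis is log2(RPKM + 1), for 12 receptor genes. Chrna6 and Gabrr3 separate the E13.5 GFP positive pools from all others, Chrnb2 and Chrna4 separate the E10.5 classes, and Gabrb1 and Gabra5 are highest in E13.5 GFP negative pools.

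The AMPA receptors, which carry most fast excitation, rose with stage in both classes (4 of 4 genes in each, against 22.1% and 19.7% of all genes tested), but not evenly. Of these genes Gria1 passed the RPKM minimum only with the group where it was highest. In GFP negative pools Gria3 and Gria4 lost this call without the pools rich in red blood cell genes (limma adjusted p = 0.119 and 0.213). Gria3 was 16.9 to 31.8 RPKM (median 27.4) in E13.5 GFP positive pools and 4.61 to 19.2 (median 12.8) in E13.5 GFP negative pools. At E10.5 it was at most 2.01 RPKM in the GFP positive and 3.44 in the GFP negative class. The E13.5 classes overlapped, and the log2 difference of 1.08 ± 0.34 just missed the threshold (limma adjusted p = 0.0512); 4 other settings, such as size factors, passed it. Gria1 and Gria4 went the other way at E13.5. Gria1 was 0 to 5.76 RPKM (median 3.16) in GFP positive and 5.21 to 10.4 (median 7.91) in GFP negative pools, a log2 difference of -1.40 ± 0.33 (limma adjusted p = 0.0081). Gria4 was 3.54 to 7.78 RPKM (median 5.002) against 9.44 to 13.98 (median 11.7), with no overlap, a log2 difference of -0.996 ± 0.30 (limma adjusted p = 0.0426) that 10 of 24 fits leaving out 1 pool did not call. Gria2, whose edited subunit limits calcium entry, was 10.6 to 16.8 RPKM (median 13.7) in E13.5 GFP positive and 14.1 to 19.99 (median 18.5) in GFP negative pools, and it was not called there. At E10.5 it was low, with medians of 0.713 and 1.85 RPKM, and lower in GFP positive pools by 0.78 ± 0.22 (limma adjusted p = 0.0173), a call lost without E10.5 GFP positive replicate 3, in a fit to the E10.5 groups alone, with a pseudocount of 5, and without the pools rich in red blood cell genes, where the difference was -0.47 with a limma adjusted p of 0.754. The summed AMPA level was 48.5 ± 7.41 and 50.1 ± 5.28 RPKM in the E13.5 classes (SD, n = 6 each), while Gria3 made up 53.8% of it in the GFP positive and 25.4% in the GFP negative class.

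NMDA receptor genes, which encode slower, calcium-permeable channels, included the receptor that rose most with stage, and none differed by call between the E13.5 classes. Grin2b, the GluN2 subunit typical of embryonic brain, was at most 1.13 RPKM in E10.5 GFP positive pools and 2.39 in E10.5 GFP negative pools. At E13.5 it was 18.6 to 32.6 RPKM (median 28.5) in GFP positive and 29.6 to 41.6 (median 35.6) in GFP negative pools. The rise, 4.54 ± 0.24 and 4.06 ± 0.24 on the log2 scale (limma adjusted p = 1.63e-14 and 5.54e-13), was the largest of any receptor in either class, and the stages did not overlap. Grin1, the subunit every NMDA receptor needs, rose by 2.998 ± 0.41 in GFP positive pools, from a median of 0.0757 to 12.8 RPKM, and by 2.84 ± 0.41 in GFP negative pools, from 1.40 to 16.1 RPKM (limma adjusted p = 6.58e-07 and 2.17e-06). Grin2b made up 54.3% and 54.97% of the summed NMDA level in the E13.5 classes. At E10.5 Grin2b was among the 10 receptors lower in GFP positive pools, by 0.87 ± 0.24 on the log2 scale (limma adjusted p = 0.0123), at levels near 1 RPKM.

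Among the 5 kainate receptor genes 1 was called at each stage, lower in GFP positive pools (8.64% of all genes tested were at E10.5 and 3.74% at E13.5). Grik1 was 0 to 3.62 RPKM (median 0.954) in E13.5 GFP positive and 3.18 to 16.6 (median 9.26) in E13.5 GFP negative pools, which overlapped narrowly, a log2 difference of -2.20 ± 0.39 (limma adjusted p = 0.000378). Grik2, the most abundant kainate subunit in both E13.5 classes, was 12.8 to 64.1 RPKM (median 40.9) against 25.5 to 50.4 (median 37.5) at E13.5, a difference of -0.01 ± 0.35 (adjusted p = 0.993, 95% interval -0.69 to 0.66). Grik2 was already 4.84 to 10.6 RPKM (median 6.41) in E10.5 GFP positive pools, above 0.929 to 6.27 (median 3.37) in E10.5 GFP negative pools with some overlap, and that difference of 0.97 ± 0.35 missed the threshold (limma adjusted p = 0.0639). With a pseudocount of 0.1, and in 3 of 24 fits without 1 pool, it passed. Grik3 was the kainate gene among the E10.5 calls, lower by 0.81 ± 0.26 (limma adjusted p = 0.0396), and was at most 0.779 RPKM in the GFP positive pools.

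Grm2 encodes a Gi-coupled metabotropic receptor that restrains transmitter release. It was 0.924 to 6.12 RPKM (median 3.26) in E10.5 GFP positive and 8.15 to 36.4 (median 25.2) in E10.5 GFP negative pools. At E13.5 it was 16.8 to 32.8 RPKM (median 18.6) in GFP positive and 4.52 to 16.5 (median 13.8) in GFP negative pools. The classes did not overlap at either stage, in opposite directions. The difference was -2.46 ± 0.40 on the log2 scale at E10.5 (limma adjusted p = 6.16e-05) and 0.84 ± 0.40 at E13.5, which was not called (adjusted p = 0.232). Grm2 made up 59.4% of the summed metabotropic level in the E13.5 GFP positive and 32.95% in the GFP negative class. Grm4, a group III receptor, was the other metabotropic gene lower in GFP positive pools at E10.5, by 1.07 ± 0.35 (limma adjusted p = 0.0405).

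The RefSeq promoter of Grm2 is shown because its class difference changed with stage and because it holds a pair of short sequences rare among promoters. In the RefSeq table (GRCm38.p6), 35 of the 47 receptors had a promoter of 250 bases before to 50 after the annotated start, 43 promoters in all. Their median GC content was 60.7%, against 52.7% over all 32851 promoters. Capitals mark TTCAGCACC and GGACAG, the left and right cores of the element bound by the neuronal repressor REST, searched on both strands; TTCAGCACC stood in 0.371% of all promoters and GGACAG in 22.2%. The pair within 20 bases occurred in 13 of the 32851 promoters (0.0396%), and among receptors only in Grm2, at chr9:106656060-106656359 on the minus strand, 7 bases apart. A match describes letters and does not show binding.
Grm2: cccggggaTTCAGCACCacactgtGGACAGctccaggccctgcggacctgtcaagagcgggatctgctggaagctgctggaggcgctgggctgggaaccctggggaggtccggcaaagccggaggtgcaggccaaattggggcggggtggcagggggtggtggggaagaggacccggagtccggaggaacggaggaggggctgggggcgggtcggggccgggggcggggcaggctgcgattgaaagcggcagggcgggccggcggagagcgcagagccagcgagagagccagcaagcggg

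GABA-A receptor genes, which encode chloride channels, rose with stage in 9 of 14 cases in GFP positive and 11 of 14 in GFP negative pools (22.1% and 19.7% of all genes tested did), and single subunits differed between classes. Of the 14, Gabrb1, Gabrg1, Gabrg3, Gabrq and Gabrr3 passed the RPKM minimum only with the group where they were highest. A difference between groups was thus built into their selection. Without the pools rich in red blood cell genes, 7 of the 11 kept the call; Gabra2, Gabrb2, Gabrg1 and Gabrg3 did not. At E13.5, 3 GABA-A subunits were lower and 2 higher in GFP positive pools (3.74% and 3.42% of all genes tested were). Gabrb1, a beta subunit, was 0 to 1.90 RPKM (median 1.17) in GFP positive and 2.23 to 9.81 (median 7.66) in GFP negative pools, a log2 difference of -1.88 ± 0.28 (limma adjusted p = 4.29e-05). Gabra5, an alpha subunit of receptors outside synapses, was 0.809 to 2.27 RPKM (median 1.31) against 4.38 to 10.49 (median 8.29), a difference of -1.85 ± 0.35 (adjusted p = 0.000943). Gabra4, an alpha subunit linked to tonic inhibition, was 0.0829 to 4.86 RPKM (median 1.86) against 4.92 to 12.2 (median 6.75), a difference of -1.63 ± 0.46 (adjusted p = 0.026). For none of the 3 did the classes overlap; the share of all genes without overlap is not given here. The GABAergic marker genes were lower in the same pools (6 of 6 called, summed median 8.65 against 215 RPKM), as were 2 of 2 serotonergic and 3 of 3 red nucleus genes tested; their part in these differences was not tested. Gabrr3, a rho subunit of GABA receptors best known from the retina, went the other way. It was 2.31 to 8.26 RPKM (median 5.36) in E13.5 GFP positive pools, was listed at 0 in all 6 E13.5 GFP negative pools, and was at most 0.747 RPKM in any E10.5 pool. Its log2 difference at E13.5 was 2.55 ± 0.27 (limma adjusted p = 2.22e-07). Gabre, the epsilon subunit, was low throughout, with group means of 2.59 and 0.545 RPKM at E13.5 and a difference of 1.30 ± 0.37 (adjusted p = 0.0308).

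Gabra4 and Gabrb1, both lower in E13.5 GFP positive pools, are neighbours on chromosome 5 in opposite directions, in a cluster with Gabrg1 and Gabra2. Their RefSeq start sites are 387 bases apart, that of Gabrb1 inside the first part of Gabra4, so reads from their shared 46 exonic bases cannot be assigned without strand, and whether the counting used strand is not given in the sources used here. Both promoters are shown since they lie side by side, at chr5:71658259-71658558 (minus strand) for Gabra4 and chr5:71657671-71657970 (plus strand) for Gabrb1, which also has a second start 41624 bases from that of Gabra4. Capitals mark GGACAG, searched on both strands, which the Gabra4 window does not hold.
Gabra4: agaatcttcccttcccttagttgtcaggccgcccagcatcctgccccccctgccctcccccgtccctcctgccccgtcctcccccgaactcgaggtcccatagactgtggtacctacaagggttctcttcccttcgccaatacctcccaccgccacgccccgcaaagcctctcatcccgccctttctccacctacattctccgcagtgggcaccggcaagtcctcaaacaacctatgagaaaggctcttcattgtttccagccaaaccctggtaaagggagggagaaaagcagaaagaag
Gabrb1: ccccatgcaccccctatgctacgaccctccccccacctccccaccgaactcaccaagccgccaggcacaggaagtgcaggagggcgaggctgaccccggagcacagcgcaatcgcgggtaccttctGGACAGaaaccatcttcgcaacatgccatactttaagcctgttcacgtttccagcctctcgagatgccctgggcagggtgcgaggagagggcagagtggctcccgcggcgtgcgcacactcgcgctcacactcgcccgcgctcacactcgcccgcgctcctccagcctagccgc
The other letters searched on both strands in the 43 promoters were AAAGGTCA, bound by Nr4a factors (0 receptor promoters, 1.51% of all), TAATTA, read by many homeodomain factors (2 receptor promoters, Gabrg1 and Chrm5, whose listed start may be that of an internal exon, 5.29% of all), and TAATCC, read by Pitx factors (1, Gabra2, 7.06% of all). CAGCTG, an E-box, stood in 2 (Chrnb4 and Htr2b, 16.3% of all) and TATAAA in 5, of Gabra3, Gabrb2, Glra2 and Grin3b (13.6% of all).

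**Figure D3:**
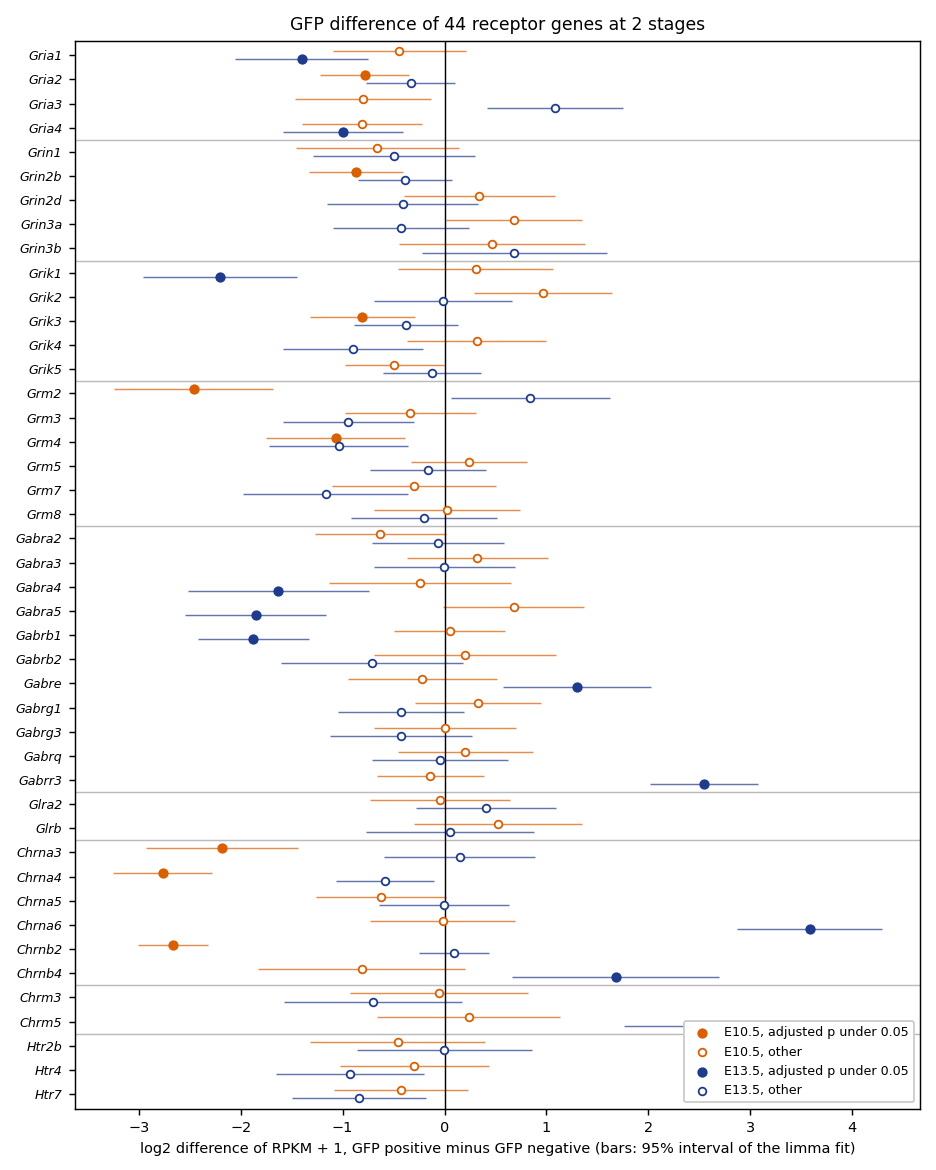
Points give the log2 difference of RPKM + 1, GFP positive minus GFP negative, for each of 44 receptors at E10.5 (orange) and E13.5 (blue); bars are 95% intervals of the limma fit and filled points have an adjusted p under 0.05. The 8 filled points at E10.5 lie left of 0, and those at E13.5 lie on both sides, from Chrna6 at 3.58 to Grik1 at -2.20.

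Over all 47 receptors at E13.5, 5 were higher in GFP positive pools (3.42% of all genes tested were) and 6 were lower (3.74%), and the median log2 difference was -0.38, against -0.03 over all genes tested. The 5 were Chrna6, Chrm5, Gabrr3, Chrnb4 and Gabre, and the 6 were Grik1, Gabrb1, Gabra5, Gabra4, Gria1 and Gria4. Among the 31 receptors that passed without their highest group, 2 were higher and 4 lower. Dopamine neuron genes were higher in the same GFP positive pools (6 of 6, median log2 difference 4.30), as were 4 of 4 Barhl1 lineage genes. The summed dopamine list was 536 to 1025 RPKM in GFP positive and 44.3 to 71.5 in GFP negative pools, where Pitx3 was listed at 0; its part in the receptor differences was not tested. Without the pools rich in red blood cell genes, 3 were higher (Chrna6, Chrm5, Gabrr3) and 3 lower (Grik1, Gabrb1, Gabra5).

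Between stages, 33 of 47 receptors rose in GFP positive pools (22.1% of all genes tested did) and none fell (29.6%). At an unadjusted limma p under 0.05, for which no shares of all genes are given here, 35 rose and 0 fell. In GFP negative pools 34 rose (19.7% of all genes) and 1, Chrnb4, fell (26.9%). Among the 31 receptors that passed the RPKM minimum without their highest group, 23 rose in the GFP positive class, and 24 rose and 1 fell in the GFP negative class. By family, 4 of 5 NMDA genes rose in each class, 4 and 5 of 5 kainate genes, 5 and 4 of 6 metabotropic glutamate genes, and 4 and 2 of 6 nicotinic genes. These families include Grin3b, Grm5, Grm7, Chrna5 and Chrna6, which passed the RPKM minimum only with their highest group. Without the pools rich in red blood cell genes, 1 of the 4 metabotropic genes that rose in the GFP negative class kept the call, and the 4 NMDA genes kept theirs. In both classes 28 receptors rose. The share of all genes that did so is not given here, and it can be at most the 19.7% that rose in GFP negative pools. Chrm5, Chrna3, Chrna6, Gabrr3 and Grm2 passed in GFP positive and not in GFP negative pools, and Chrm3, Gabra4, Gabra5, Gabrg1, Grik1 and Htr7 the other way round. The test of the difference between the 2 changes called all of the first 5, but of the second 6 called Gabra5 and Grik1 and not Chrm3, Gabra4, Gabrg1 and Htr7. The median log2 change was 1.57 in the GFP positive and 1.999 in the GFP negative class, against -0.14 and -0.11 over all genes tested. Scaling by size factors moved these medians of all genes to -0.03 in both classes. All 8 pan-neuronal genes in the GFP positive and 7 in the GFP negative class rose too, with medians of 3.47 and 1.28, and their part was not tested. With the red blood cell rich pools left out, 32 receptors rose in the GFP positive and 19 in the GFP negative class.

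In GFP positive pools large rises beside that of Grin2b were those of Chrnb2 (4.35 ± 0.17), Gria3 (4.01 ± 0.34), Chrna6 (3.83 ± 0.36), Gria2 (3.15 ± 0.22) and Chrna4 (3.12 ± 0.25). In GFP negative pools they were those of Grik2 (3.23 ± 0.35), Gabra3 (2.96 ± 0.35) and Gabrb1 (2.88 ± 0.28). Chrna6, Gabrb1 and Glra2 (below) passed the RPKM minimum only with the group where they were highest. Gabra3, an alpha subunit of early neurons, was 5.84 to 18.3 RPKM (median 8.78) and 3.74 to 19.7 (median 8.59) in the E13.5 classes. The summed kainate level averaged 12.8 and 11.1 RPKM in the E10.5 GFP positive and negative classes, then 60.9 and 72.6 RPKM in those of E13.5. The receptors called in neither class were Grin3b, Grm4, Gabre, Gabrq, Glrb, Chrna5 and Htr2b, besides Chrnb4, which fell in GFP negative pools alone. Glrb, the beta subunit of glycine receptors, was 3.71 to 12.7 RPKM in E10.5 GFP positive pools and 2.05 to 14.4 in E13.5 GFP positive pools, while its partner Glra2 rose from at most 0.245 to 4.16 to 9.12 RPKM (log2 change 2.71 ± 0.35, limma adjusted p = 2.95e-07). Serotonin receptors stayed low: the highest pool of Htr2b, Htr4 or Htr7 was 6.09 RPKM, for Htr4 in E13.5 GFP negative cells.

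The stage difference of the GFP difference was tested in the same fit. It was positive in 9 receptors (3.93% of all genes tested) and negative in 3 (1.9%): 5 of 6 nicotinic genes were among the 9. Among the 31 receptors that passed without their highest group it was positive in 6 and negative in 2. Chrna6 had 3.60 ± 0.51 (limma adjusted p = 4.12e-05), Grm2 3.30 ± 0.56 (0.000361), Chrnb2 2.76 ± 0.25 (5.04e-08), Gabrr3 2.68 ± 0.38 (3.9e-05), Chrnb4 2.49 ± 0.73 (0.0417), Chrm5 2.42 ± 0.65 (0.0222), Chrna3 2.33 ± 0.54 (0.00724), Chrna4 2.18 ± 0.35 (0.000179) and Gria3 1.89 ± 0.48 (0.0164). In Chrna6, Gabrr3 and Chrm5 this came with an E13.5 difference, and in Chrnb2, Chrna4 and Chrna3 with an E10.5 difference that was no longer called. The 3 negative ones were Gabra5 at -2.53 ± 0.50, Grik1 at -2.51 ± 0.55 and Gabrb1 at -1.93 ± 0.39 (limma adjusted p = 0.00183, 0.00471 and 0.00266). Of the pan-neuronal genes 7 of 8 were called positive, with a median of 2.20, and their part was not tested. Without the pools rich in red blood cell genes 4 stayed positive (Chrnb2, Chrna4, Grm2 and Gabrr3) and 1 negative (Grik1).

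Genes that act with these receptors were taken as lists of partners, chosen with earlier results of these data known. Of 28 tested glutamate receptor partners 20 rose with stage in the GFP positive and 18 in the GFP negative class (22.1% and 19.7% of all genes tested did), while Homer1 fell in the first and Dlg1 and Dlg3 in the second. Among those that rose was Dlg4, the scaffold PSD-95, with medians of 20.7 and 26.1 RPKM in the GFP positive and negative classes of E10.5 and 110.9 and 101.96 RPKM in those of E13.5. Of 14 GABA and glycine receptor partners, 12 and 9 rose, among them Gphn, which encodes gephyrin. At E10.5, where 8.64% of all genes tested were lower in GFP positive pools, 5 of 28 glutamate partners were lower, 3 of them AMPA receptor auxiliaries (Cacng2 -1.69, Cacng3 -2.24, Cnih2 -1.41), and 1, Sorcs2, was higher. Of 14 GABA and glycine partners 5 were lower at E10.5 and none differed at E13.5. Of 8 acetylcholine receptor partners 3 were lower at E10.5: Tmem35, a chaperone of nicotinic receptors (-1.57), the regulator of G protein signalling Rgs4 (-1.60) and Ache. Ache, which encodes the enzyme that degrades acetylcholine, was listed at 0 in all 6 E10.5 GFP positive pools and was 1.98 to 9.39 RPKM (median 4.59) in GFP negative pools. At E13.5 it was 4.62 to 12.6 RPKM in GFP positive and 2.502 to 12.4 in GFP negative pools, with overlap. There 2 of the 8 were lower in GFP positive pools (3.74% of all genes tested were): Rgs4 (-1.73) and Nptn (-0.69).

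The chloride transporters changed in opposite directions with stage in both classes. All 6 neural progenitor genes fell in the same comparisons, with median log2 changes of -3.45 in the GFP positive and -3.17 in the GFP negative class. Pan-neuronal genes mostly rose, and the part of these shifts in the transporter changes was not tested. Slc12a5, which encodes the exporter KCC2, was 0.972 to 1.85 RPKM (median 1.29) in E10.5 GFP positive and 4.43 to 12.9 (median 8.09) in E13.5 GFP positive pools. In GFP negative pools it was 0.412 to 2.13 (median 1.29), then 9.25 to 18.3 (median 13.2). The log2 rise was 2.001 ± 0.25 in the GFP positive and 2.69 ± 0.25 in the GFP negative class (limma adjusted p = 2.25e-07 and 2.49e-09). Slc12a2, which encodes the importer NKCC1, had medians of 6.93 and 2.14 RPKM at E10.5 and E13.5 in GFP positive and 5.38 and 2.46 in GFP negative pools, and fell by 1.21 ± 0.26 and 0.97 ± 0.26 on the log2 scale (limma adjusted p = 0.000378 and 0.00348).

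Single cells were grouped by marker transcripts, where a gene was present in a cell at an RPKM of 10 or more; for a transcript of 2 kb this stood for 27.3 reads in the median cell. Neurons (316 cells) had Stmn2 and Tubb3. Of these, 41 cells with Th and Nr4a2 formed the dopamine gate, 98 others with Barhl1 the Barhl1 gate, 26 others with Gad2 and Slc32a1 the GABA gate, and the rest are called other neurons. Progenitors (78 cells) had Sox2 and no Stmn2. Genes outside the gates went with the names: Pitx3 was present in 63.4% of dopamine gate and 2.04% of Barhl1 gate cells, En1 in 58.5% and 2.04%, and Gad1 in 65.4% of the GABA gate. Slc6a3, the dopamine transporter, was present in 21.95% of the dopamine gate, and Nr4a2 in 51.02% of the Barhl1 gate. Shares are given with exact 95% Clopper-Pearson intervals, which cover counting error only, and no test, since each stage is 1 sample. Genes were compared by a difference of at least 15 percentage points.

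Neurons held more receptors than progenitors. The median cell had 1 of the 47 receptors present in the progenitor gate, 5 in the dopamine gate, 3 in the Barhl1 gate, 6 in the GABA gate and 4 in the other neurons. No receptor at all was present in 38.5% of progenitors and 4.75% of neurons. By stage the median went from 1 receptor (E10.5) through 2 (E11.5) and 3 (E12.5) to 4 (E13.5). Median depth was 1.30 M reads at E10.5, 0.746 M (E11.5), 1.404 M (E12.5) and 1.77 M (E13.5), so from E10.5 to E11.5 it went down while the receptor count went up, and after E11.5 both went up. Its part was not tested. Between neurons and progenitors 7 receptors differed by 15 points or more, all higher in neurons (4.53% of 15859 genes were), among them Chrna4, Chrnb2, Gria2, Grin2b and Grm2. None was lower (25.5% of genes were). Between all E13.5 and all E10.5 cells 7 were higher (4.31% of genes), among them Grik2 but not Grm2, and none lower (21.4%). Grik2 was also found in progenitors, present in 26.9% of them (17.501 to 38.2) and in 28.5% of the other neurons (21.4 to 36.4). Of the 47 receptors 11 stayed under 5% in every stage and gate: Chrm3, Chrna5, Gabrb1, Gabre, Gabrg1, Gabrg3, Grin3b, Grm5, Htr2b, Htr4 and Htr7.

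Chrnb2 was spread over all neurons: 78.05% of dopamine gate (62.4 to 89.4), 72.4% of Barhl1 gate (62.5 to 80.99), 69.2% of GABA gate and 74.8% of other neurons, against 3.85% of progenitors (0.800 to 10.8). The alpha subunits were less evenly spread. Chrna4 was present in 39.02% of dopamine gate (24.2 to 55.5), 34.6% of GABA gate and 29.1% of other neurons, but in 12.2% of Barhl1 gate cells (6.49 to 20.4). Chrna6 was present in 11 of 41 dopamine gate cells, 26.8% (14.2 to 42.9), in 1 of the other neurons and in none of 98 Barhl1 gate cells, which allows a share of up to 3.06% (3 cells of 98; the exact interval reaches 3.69%). At E13.5 it was in 9 of 20 dopamine gate cells.

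Dopamine gate cells had 6 receptors at least 15 points more often than Barhl1 gate cells (3.29% of genes were) and none less often (2.3%). These were Chrna4, Chrna6, Grm2, Gria3, Grik3 and Gria2. Grm2 was present in 43.9% of dopamine gate (28.5 to 60.3) and 11.2% of Barhl1 gate cells (5.74 to 19.2). Gria3 was present in 34.1% (20.1 to 50.6) against 5.10% (1.68 to 11.51), though at a presence limit of RPKM 1 the gap shrank to 11.6 points. Grik3 was present in 21.95% (10.6 to 37.6) against 1.02% (0.0258 to 5.55). Gria2 was present in 36.6% (22.1 to 53.1) against 21.4% (13.8 to 30.9), intervals that overlap, and at an RPKM limit of 30 the gap was 12.9 points. Median depth was 1.72 M reads in dopamine gate and 1.49 M in Barhl1 gate cells, with 4453 and 4144 genes. Within E13.5 alone, with 20 and 43 cells, 9 receptors were higher by 15 points (8.45% of genes): these 6, Chrm5, Glrb and Grin2b. None was lower (3.81%). There Grm2 was in 13 of 20 cells (40.8 to 84.6%) against 9.30% (2.59 to 22.1).

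**Figure D4:**
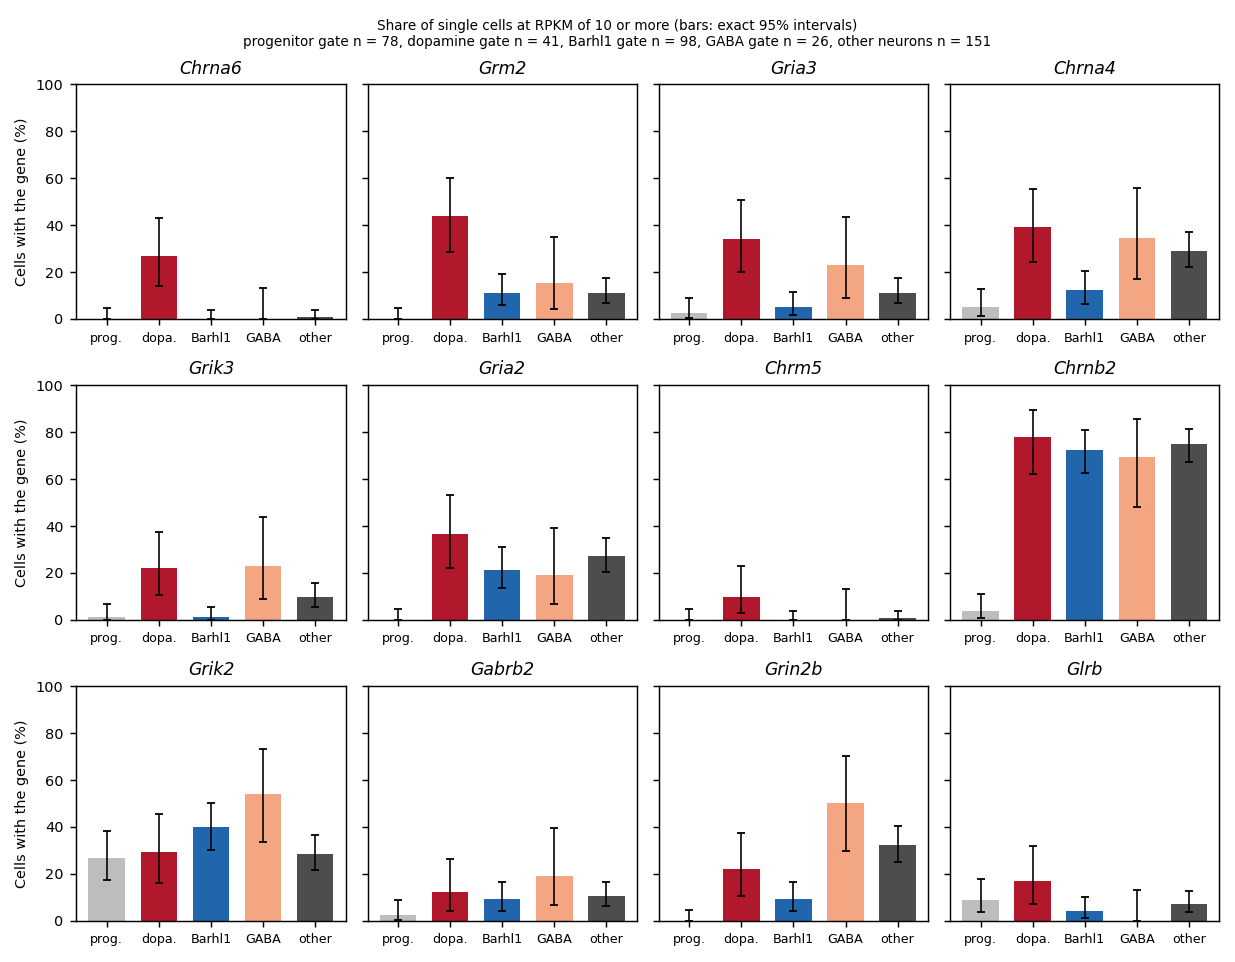
Bars give the share of cells in which a gene was present at an RPKM of 10 or more, with exact 95% intervals, in progenitors (prog., n = 78), the dopamine gate (dopa., n = 41), the Barhl1 gate (n = 98), the GABA gate (n = 26) and other neurons (the rest of 316). Chrna6 stands in the dopamine gate at 26.8% and is at or near 0 elsewhere, while Chrnb2 is at 69.2% or more in all 4 groups of neurons.

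Against the other neurons, dopamine gate cells had Chrna6, Gria3 and Grm2 more often by 15 points or more (2.59% of genes were). They had 1 receptor, not named here, less often (1.1%). Barhl1 gate cells had none more often (1.2%) and Chrna4 and Grin2b less often (0.549%). Grin2b was present in 9.18% of Barhl1 gate cells (4.29 to 16.7) and 32.5% of other neurons (25.1 to 40.5). GABA gate cells had Grik2 and Grin2b, among others, more often (3.44%) and none less often (2.22%), with Grin2b in 13 of 26 cells (29.9 to 70.1%). The GABA gate is small, and its intervals are wide. Between neurons of E11.5 and E12.5, Grin2b went from 7.69% to 26.1% of cells (6.87% of genes gained 15 points), while Grik2 went from 26 of 52 cells to 29.9% (1.29% lost 15 points). The E11.5 neurons had 0.782 M reads in the median and the E12.5 neurons 1.35 M, and the part of depth in these changes was not tested. At E12.5, where cell titles form 2 series, C with 42 and F with 92 neurons, only Gabrb2 differed by 15 points between the series (higher in F, as 2.07% of genes were; 3.17% were lower). Between neurons of E12.5 and E13.5 no receptor differed by 15 points in either direction (0.612% of genes were higher and 0.214% lower).

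The 12 cells with Chrna6 were alike in other respects. All 12 had Pitx3, Nr4a2 and Slc18a2, the vesicular monoamine transporter, 11 had Th and 7 had Slc6a3; none had Barhl1, Chrna3 or Chrna5. Chrnb2 was present in 9 of them, Chrna4 in 8, Grm2 in 7, Grik3 in 7, Gria3 in 6 and Chrnb3 in 2. They came from E12.5 (2 cells) and E13.5 (10 cells). Chrm5 was present in 5 cells, all of E13.5 and 4 of them in the dopamine gate, and 1 of the 5 had Chrna6. All 3 cells with Chrnb3 were in the dopamine gate. The 8 cells with Gabrr3 were different: 6 had Barhl1, 5 were in the Barhl1 gate, 1 was in the dopamine gate and none had Pitx3. Of the receptors highest in E13.5 GFP positive pools, then, Chrna6 and Chrm5 were found mostly in the dopamine gate and Gabrr3 mostly in cells with Barhl1, on few cells each. The gates differ in size: Gabrr3 was in 5 of 98 Barhl1 gate and 1 of 41 dopamine gate cells, too few to set the 2 gates apart. Gabrr3 shares 6.53% of its exonic bases with 1700022E09Rik on the other strand.

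Cells were also counted by the sets of subunits they held. A nicotinic alpha together with a beta subunit was present in 48.8% of dopamine gate (32.9 to 64.9), 13.3% of Barhl1 gate (7.26 to 21.6), 30.8% of GABA gate and 29.1% of other neurons, and in 1.28% of progenitors. In the dopamine gate the nicotinic set was in 1 of 9 E11.5 cells, 6 of 12 E12.5 cells and 13 of 20 E13.5 cells. Median depth of these cells was 0.667 M reads at E11.5, 1.91 M at E12.5 and 1.87 M at E13.5, and its part was not tested. At least 2 AMPA subunits were present in 29.3% of dopamine gate (16.1 to 45.5), 8.16% of Barhl1 gate (3.59 to 15.5), 26.9% of GABA gate and 12.6% of other neurons. The set for NMDA receptors (Grin1 with a Grin2) was rare everywhere. It was present in 2.44% of dopamine gate and 3.06% of Barhl1 gate cells, and at most in 11.54%, in the GABA gate. Any 1 kainate subunit, a looser criterion than these sets, was present in 42.3% of progenitors and 56.01% of neurons. A set is counted only when every transcript passes the presence limit, so a transcript missed by sampling leaves its cell out.

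**Figure D5:**
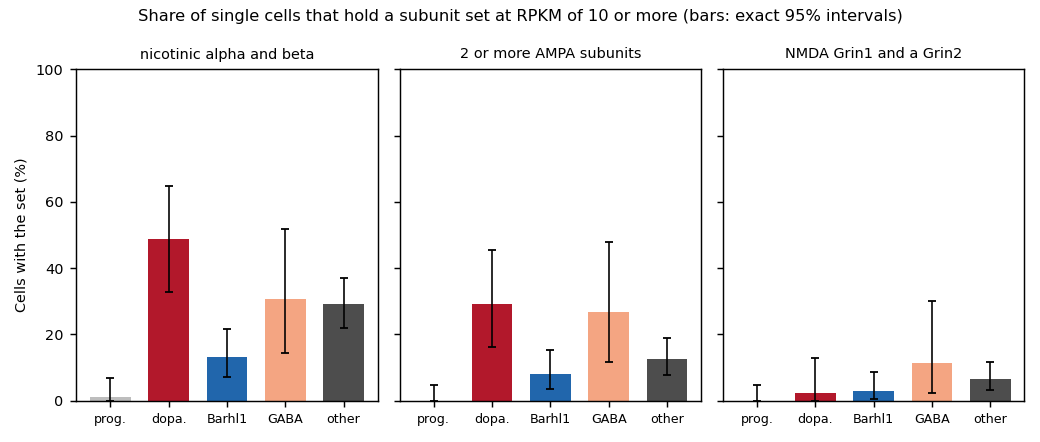
Bars give the share of cells in which all transcripts of a subunit set were present at an RPKM of 10 or more, with exact 95% intervals, for progenitors (prog.), the dopamine gate (dopa.), the Barhl1 gate, the GABA gate and other neurons. The nicotinic set is at 48.8% in the dopamine gate and 13.3% in the Barhl1 gate, and the AMPA set at 29.3% and 8.16%.

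The 4 genes that share only the spelling behaved apart from one another. Grina, on chromosome 15, averaged 46.7, 97.3, 219 and 199 RPKM in E10.5 GFP positive, E10.5 GFP negative, E13.5 GFP positive and E13.5 GFP negative pools, and was called lower in GFP positive pools at E10.5 (log2 difference -1.05 ± 0.11, limma adjusted p = 1.18e-07). Htra2 fell by 0.65 ± 0.26 in GFP positive pools with stage (adjusted p = 0.0393), and Htra1 and Htra3 were at most 3.83 RPKM in any pool. Reads shared with a gene on the other strand could add to several receptors named above, since 16.3% of the exonic bases of Chrnb2 overlap Adar, 1307 of 9700 exonic bases of Grin1 overlap Grin1os and 9.6% of Grm2 overlap Gm28111; the share of such reads was not measured.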

How the data were processed

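Smart-seq2 libraries of 24 pools and 550 single cells were analysed. Per the submitters' processing notes, reads were aligned with STAR 2.3.0 to mm10; the labels and headers read here name neither annotation nor counter. The authors deposited RPKM values for pools and log2(RPKM + 0.001) values for cells, which were turned back into RPKM. Neither table holds counts, so depth was estimated from the steps between low values. Pools were fitted with limma 3.58.1 (R 4.3.3), with moderated variance and trend, on log2(RPKM + 1), 1 mean per group, over 15871 genes. The code was tested on simulated data. Groups of pools and stages of cells come from the labels. Per-pool values are given for receptors called in a contrast with a group mean of at least 5 RPKM, at most 10 per direction, and for those called in the stage difference; cell values for receptors present in at least 5% of a stage or gate. Some receptors are left out of the named results and figures and are not reported here; counts are over all 47. Members, gene lists and gates were chosen with earlier results of these data known. Within groups, pools correlated at 0.934 to 0.960 across genes and no 2 were identical. Cells were kept at 1000 genes or more, which removed none. Alternatives changed the pseudocount (0.1, 5), the RPKM minimum (none, 5), scaling, variance trend, pools fitted, presence limit (1, 30), gates and gene minimum, and left out each pool. Gene positions are from GENCODE on GRCm38 and promoters from RefSeq.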

Additional observations from a re-analysis of the deposited data

Results flagged for a closer look

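The class difference changed with stage in 12 receptors, by the test of that change in limma (stage difference of the log2 GFP difference). The change was positive in 9 (3.93% of all genes tested) and negative in 3 (1.9%). It was positive for Chrna6 at 3.60, Grm2 at 3.30, Chrnb2 at 2.76, Gabrr3 at 2.68, Chrnb4 at 2.49, Chrm5 at 2.42, Chrna3 at 2.33, Chrna4 at 2.18 and Gria3 at 1.89. It was negative for Gabra5 at -2.53, Grik1 at -2.51 and Gabrb1 at -1.93. Of the 12, Chrna6, Gabrr3, Chrm5 and Gabrb1 passed the RPKM minimum only with the group where they were highest.

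In 1 of 68 combinations of gene and group, 1 pool lay far from the other 5: the lowest E13.5 GFP positive pool of Grik5 was at 4.95 RPKM, the next at 10.4. Chance alone would mark about 1 in 20 such combinations.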

How the results depend on the processing

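No receptor changed the direction of a call under any alternative run. For E10.5 GFP positive against negative, the count of lower receptors was 6 with a pseudocount of 5, 6 with only the E10.5 pools fitted and 3 without the pools rich in red blood cell genes (added after seeing the data); the higher count was 1 (Grik2) with a pseudocount of 0.1. For E13.5 the higher count was 3 with an RPKM minimum of 5 and 3 without the red blood cell rich pools, and the lower count was 2 with an RPKM minimum of 5, 2 with a pseudocount of 0.1 and 3 without those pools. In GFP negative pools 22 receptors rose with an RPKM minimum of 5, and without those pools 19 rose and 0 fell. For the stage difference of the GFP difference, without those pools 4 were positive and 1 negative; with an RPKM minimum of 5, 0 were negative. The higher minimum tests fewer receptors, and the red blood cell alternative has fewer pools. Whether these or other causes moved the counts was not tested.

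Leaving out each pool in turn gave 0 to 1 higher and 8 to 10 lower receptors at E10.5, 3 to 6 higher and 4 to 8 lower at E13.5, 31 to 35 rising and 0 falling in GFP positive and 34 to 35 rising and 1 to 2 falling in GFP negative pools (the second was Grm2), and 8 to 10 positive and 3 negative stage differences. Gria2 at E10.5 lost its call without E10.5 GFP positive replicate 3, Gabre at E13.5 in 6 and Gabra4 in 4 of 24 such fits. Chrm5 lost its stage difference at a pseudocount of 0.1. In cells, at least 2 AMPA subunits were present in 16.3% of the Barhl1 gate at an RPKM limit of 1, and the NMDA set in 0% of the dopamine gate at a limit of 30. No paired analysis was possible because the labels pair no pools across groups: replicate numbers follow accession order only.

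Depth limits the cell shares, since a transcript of 2 kb at the presence limit stood for 27.3 reads in the median cell, and absence in a cell is not absence of expression.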
